A study of Homo sapiens with 18 samples.

Results

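The comparison described here sets MiaPaCa-2 cells that had led the way along a nerve in 2 successive injections (passage 2 leaders, 3 libraries) against cells of the same line that were never injected (the parental line, 3 libraries). These 6 libraries were taken by name from a series of 18, which also holds 3 libraries each of passage 1 laggers and of leaders from passages 1, 3 and 4. MiaPaCa-2, a widely used human cell line, came from a carcinoma of the pancreas, and all libraries carry the label WT for genotype. Leaders were collected from the sciatic nerve after injection, grown in culture, and in part injected again, so passage 2 leaders come from passage 1 leaders. The parental samples were cultured in vitro and the leaders are labelled in vivo. Passage along a nerve, time in an animal and the handling of recovered cells therefore cannot be told apart in this comparison. The labels do not say whether RNA was taken at harvest or after regrowth. Nothing states that the 3 replicates are independent cultures or animals, so p-values here reflect only how far these libraries differ from each other, which may be technical.

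Pancreatic cancer is known for its spread along nerves, called perineural invasion. Tumour cells in and around a nerve meet Schwann cells, axons, fibroblasts and their secreted factors, among them the glial cell line-derived neurotrophic factor GDNF, which signals through the receptor RET, and chemokines such as CCL2 and CX3CL1. Cells that move along a nerve also use integrins and matrix, proteases and the actin skeleton.

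Gene counts reached 20837228 to 27302253 in the passage 2 leaders and 29005147 to 39373248 in the parental libraries. Levels are in CPM, counts scaled to a common TMM-adjusted library size and not adjusted for gene length, and groups are given as mean ± SD (n = 3). Fold changes are on the log2 scale with ± 1 standard error. A gene was called higher or lower at a Benjamini-Hochberg adjusted p under 0.05 in edgeR's quasi-likelihood test. Libraries correlated with the others of their own group at 0.972 to 0.988 on average and with the other group at 0.895 to 0.928. Reads aligned to more than 1 place took 28.1% to 30.6% of all entries in the leaders and 13.9% to 16.4% in the parental line. The 13 protein-coding mitochondrial genes took 1.20 ± 0.129% of gene counts in the leaders and 0.301 ± 0.0730% in the parental line. The 3 leaders were all higher, and an exact two-sided permutation test gave p = 0.1, the smallest value that 3 against 3 can give.

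Of 16187 genes tested, 2444 (15.1%) were higher and 2402 (14.8%) were lower in passage 2 leaders than in the parental line. These shares are the background against which each gene list below is read. Rises were larger than falls, with 637 genes at least 16-fold higher and 134 at least 16-fold lower. The 3 leader libraries all lay above the 3 parental ones for 2373 of the 2444 genes called higher, and all below for 2380 of the 2402 called lower. Among all 16187 tested genes they lay all above for 3872 and all below for 4016. The test favours genes that separate in this way, so separation of called genes is no further support. The number of genes called fell to 3167 without parental replicate 3 and to 3188 without passage 2 leader replicate 3. Of those genes 3023 and 3126 were also called with all libraries. The lists of pathways and of markers were set with earlier results of these data known, so a list's count is a description.

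**Figure D1:**
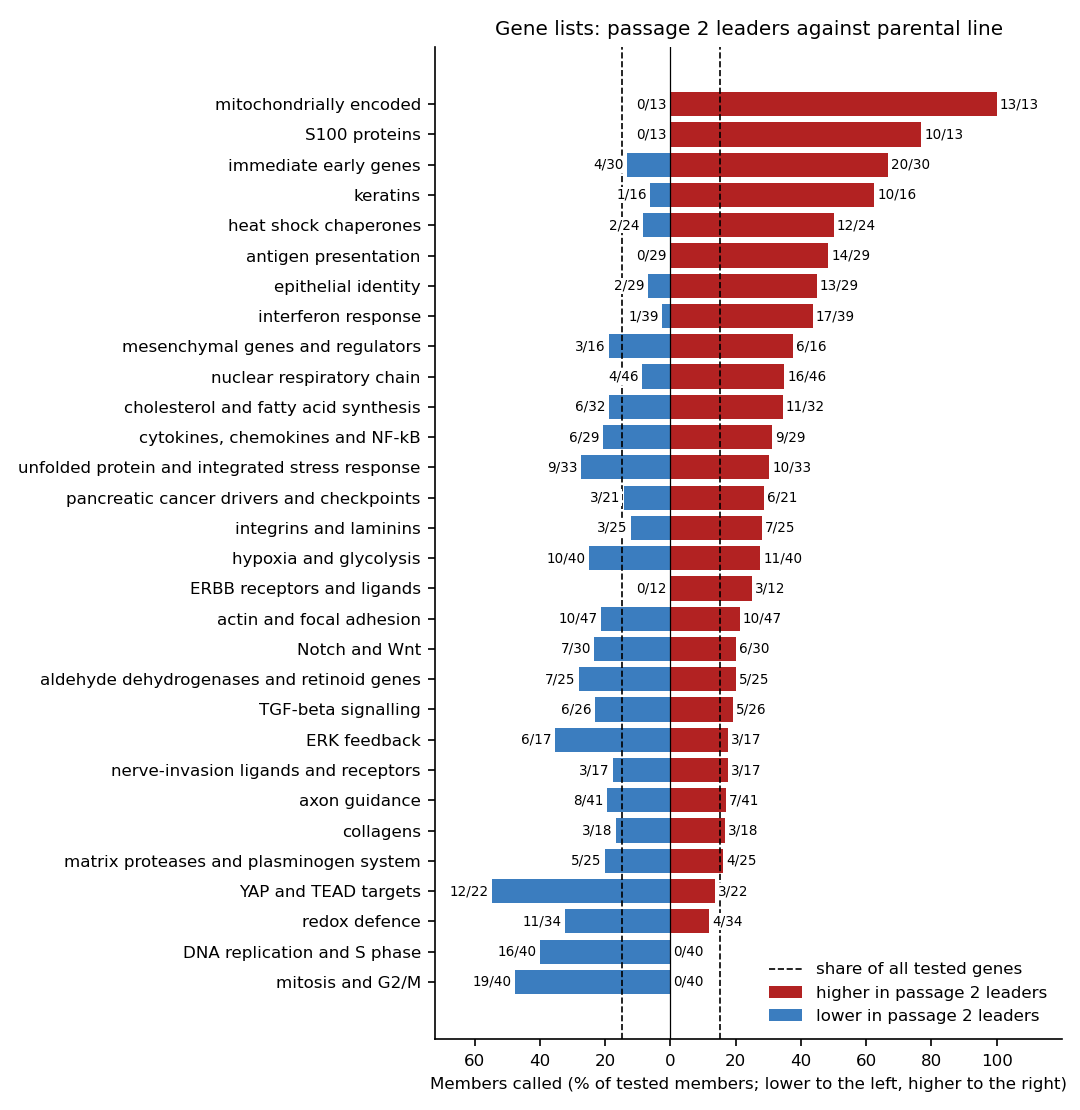
Share of the tested members of each pathway list called higher (red, to the right) or lower (blue, to the left) in passage 2 leaders than in the parental line, in percent, with the number of members beside each bar. Dashed lines mark the shares of all tested genes, 15.1% higher and 14.8% lower; all 13 mitochondrially encoded genes were higher, and no member of the DNA replication or mitosis lists was.

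The genes of largest rise had at most 3 parental counts and stood at up to 156 CPM in a leader library. CHI3L2, a secreted chitinase-like protein, had 0 counts in all 3 parental libraries and 36, 48 and 45.3 CPM in the leaders, at least 1536-fold higher with the parental line set at the floor of 3 counts over the group. SERPINA5, an inhibitor of protein C, also went from 0 to 18.4, 25.1 and 21.2 CPM. In both genes every leader library lay far above a parental line without a single read. OLFM4, a secreted glycoprotein of intestinal crypt cells, had 0.0249, 0 and 0.037 CPM in the parental libraries and 138, 66.2 and 109 CPM in the leaders, a ratio of 5559 with a 95% counting interval of 1538 to 45911. NR0B2, a nuclear receptor that lacks a DNA-binding domain and represses bile acid synthesis, rose from at most 0.037 to 151, 83.3 and 156 CPM. Intervals and floors here and below cover counting error only.

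Further risers of largest fold were SLC13A2, a dicarboxylate transporter (103, 74.6 and 93.8 CPM), the zinc finger gene ZBTB7C (22, 19.7 and 12.8 CPM), the cysteinyl leukotriene receptor CYSLTR2 (139, 111 and 106 CPM) and the nicotinic receptor subunit CHRNA6 (58.9, 81.2 and 63.4 CPM), each with 0 to 3 parental counts. The leader libraries were uneven for 2 more. HSD3B2, an enzyme of steroid hormone synthesis, stood at 62.5, 4.83 and 17.2 CPM in the leaders, and its lower bound of 961-fold fell to 417-fold without replicate 1. CCKBR, the receptor for gastrin and cholecystokinin, stood at 7.97, 36.1 and 2.95 CPM, and its bound of 519-fold fell to 182-fold without replicate 2, and its call was lost with limma-voom (adjusted p = 0.06). Among the 12 risers of largest fold, the mean level over the leader passages was highest in passage 2 for 6, in passage 1 for 3 and in passage 3 for 3. Choosing the 12 by their fold in passage 2 favours a peak there, so these counts are a description only. OLFM4 stood at 12.7 ± 4.97 CPM in passage 3 leaders, which did not pass against passage 2 (adjusted p = 0.58), and at 0.984 ± 1.27 CPM in passage 4 leaders, while SERPINA5 stood at 36.6 ± 9.8 and 32.3 ± 10.6 CPM there.

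The falls of largest fold included receptors, secreted proteins and a collagenase. CCR1, a receptor for inflammatory chemokines, had 12.4, 10.9 and 7.73 CPM in the parental libraries and no count in any passage 2 leader, at least 247-fold lower. MMP1, the interstitial collagenase, had 7.51, 6.02 and 4.14 CPM and then no count, at least 141-fold lower. CASS4, a scaffold of focal adhesions, had 7.04, 5.87 and 4.14 CPM and then no count. DNER, a neuronal ligand of Notch, fell from 251, 283 and 275 to 0.0477, 3.09 and 2.51 CPM. GSG1, PSG9, BIRC7 (an inhibitor of apoptosis), CEND1, CYP4F22, CACNG7 and GGT5 completed the 12 and each had a parental mean of 6.35 to 28.8 CPM and a leader mean of at most 0.156 CPM. CXCL1, a chemokine for neutrophils, fell from 20.8, 20.1 and 15.2 to 0, 0 and 0.147 CPM (adjusted p = 0.00694, but 0.075 with limma-voom). Absence of overlap between the groups was a condition of this choice and is no support for it.

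**Figure D2:**
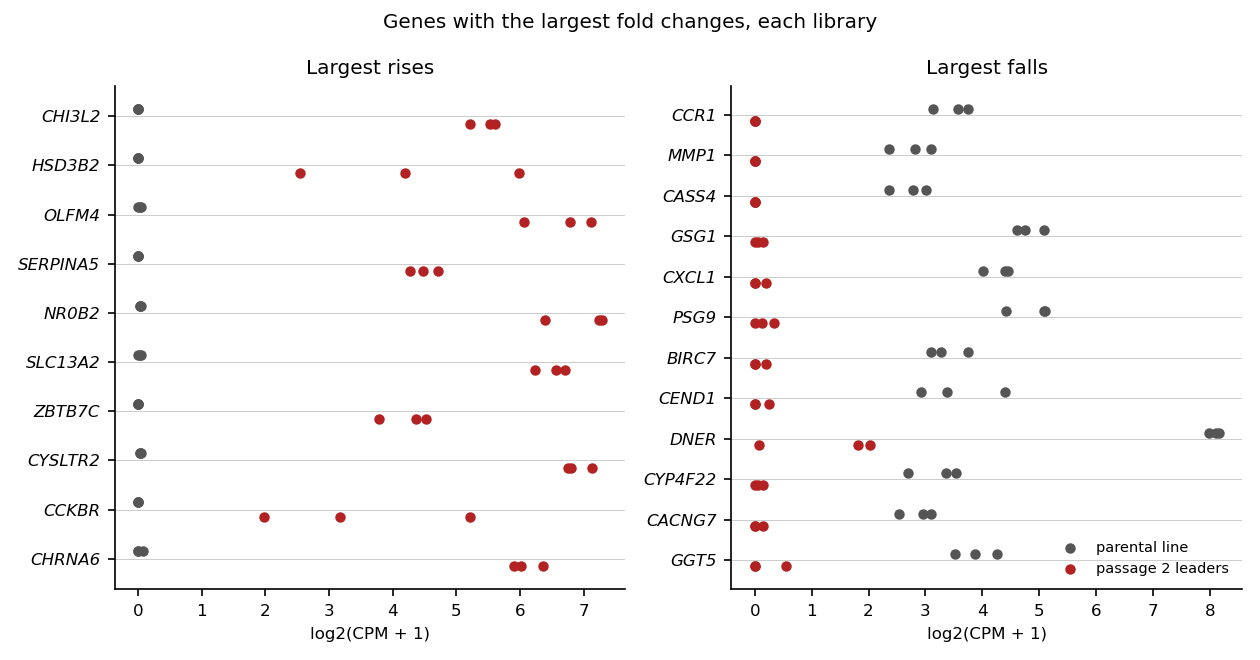
Level of 10 of the 12 genes with the largest rise (left) and of the 12 with the largest fall (right) in each parental (grey) and passage 2 leader (red) library, as log2(CPM + 1). Parental points of the risers lie at or near 0; HSD3B2 and CCKBR show the widest spread between leader libraries.

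Ranked by the change in CPM, the largest rises were in MT-RNR2, KRT18, KRT8, MEST, TMSB4X, FOS, MT-CO1 and FN1. MEST, an imprinted gene of mesodermal tissue, rose from 1129.7, 1238 and 976 to 6356, 7125 and 6415 CPM (log2 fold change 2.57 ± 0.27, adjusted p = 6.88e-06). TMSB4X, the actin monomer binder thymosin beta-4, rose from 2968, 2140.2 and 1588 to 4348, 5646 and 6598 CPM. The largest falls in CPM were in GPRC5A, FLNA, TGM2, COTL1, PKM, ENO1, MYO10 and IGFBP6. GPRC5A, a retinoic acid-induced receptor, fell from 3700.1, 3784 and 4133 to 179, 115 and 149 CPM (log2 fold change -4.71 ± 0.78, adjusted p = 0.000371). TGM2, a transglutaminase that cross-links proteins, fell from 1729, 1610.2 and 2840.3 to 149.5, 314 and 276 CPM. Also far lower were the filopodial motor MYO10, which went from 1066 ± 199 to 99.3 ± 43 CPM, and IGFBP6, a binding protein of insulin-like growth factors, which went from 963 ± 240.1 to 37.9 ± 16.7 CPM. COTL1, which binds filamentous actin, went from 2044 ± 423 to 218 ± 83.7 CPM. Of these 8 the glycolytic genes PKM and ENO1 had the smallest fold changes. The call of ENO1 (log2 fold change -0.43 ± 0.13, adjusted p = 0.0222) was lost without parental replicate 3 (adjusted p = 0.105). It was also lost without leader replicate 1 (0.056) or 3 (0.0827), with the compared libraries alone (0.079) and without a filter (0.0879).

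Immediate early genes, which growth factors, stress and calcium switch on without new protein synthesis, were the pathway list with the largest number of members higher. Of 30 members 20 were higher and 4 were lower, with a median log2 fold change of 2.09 against 0 over all genes. Without parental replicate 3 or leader replicate 1 the lower members numbered 2. By share higher (66.7%) this list came after the mitochondrially encoded genes (100%) and the S100 proteins (76.9%). NR4A2, an orphan nuclear receptor, had 0.0249, 0.128 and 0.185 CPM in the parental libraries and 130.4, 118 and 159 CPM in the leaders (log2 fold change 10.27 ± 0.39, adjusted p = 9.18e-11). FOS, which pairs with JUN in the factor AP-1, rose from 21.3, 19.2 and 35.6 to 2531, 2451 and 2188 CPM (log2 fold change 6.56 ± 0.33, adjusted p = 3.81e-09). For both genes the lowest leader library stood above the highest parental one by more than an order of magnitude. FOSB rose from 4.25, 1.74 and 4.36 to 326, 345 and 404 CPM (log2 fold change 6.70 ± 0.44, adjusted p = 7.46e-08). The stress-induced factor ATF3 rose from 3.48, 2.6 and 2.74 to 77.2, 96.1 and 114 CPM (log2 fold change 5.02 ± 0.32, adjusted p = 5.27e-08). EGR1, a zinc finger factor induced by serum, rose from 134 ± 47.8 to 896 ± 91.8 CPM, and DUSP1, the phosphatase that switches off stress-activated kinases, rose from 96.7 ± 16.5 to 1066 ± 44.5 CPM. The 4 members that fell were the FOS relatives FOSL1 (-2.84 ± 0.58) and FOSL2 (-1.39 ± 0.23), the matrix protein CYR61 (-0.89 ± 0.26) and MAFF (-0.87 ± 0.28), on the log2 scale. So within the AP-1 family FOS, FOSB, JUN and JUNB were higher and FOSL1 and FOSL2 were lower.

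Heat shock chaperones, which refold or hold damaged proteins, had 12 of 24 members higher and 2 lower (median 0.62), or 1 lower without leader replicate 1. HSPA6, an HSP70 that is nearly silent without stress, rose from 1.97, 2.25 and 3.81 to 233, 294 and 347 CPM (log2 fold change 6.78 ± 0.44, adjusted p = 6.93e-08). HSPA1B rose from 14.6, 18.8 and 12.8 to 118, 124 and 162 CPM, and DNAJB1, the co-chaperone that feeds clients to HSP70, rose from 389, 332 and 429.6 to 977, 1254 and 1363 CPM (log2 fold change 1.64 ± 0.19, adjusted p = 1.55e-05). The groups lay apart for all 3. HSPB8, a small heat shock protein of chaperone-assisted autophagy, rose from 0.149, 0 and 0.037 to 37.5, 30.9 and 37.3 CPM (log2 fold change 8.97 ± 0.90, adjusted p = 4e-06). In passage 1 HSPA6 stood at 1015, 2222 and 2280.4 CPM in the laggers and 295, 544 and 449 CPM in the leaders, and FOS stood at 1463 ± 584 CPM in those laggers and 1350.3 ± 286 CPM in those leaders. These levels of other groups are given as a description, with no test. The abundant chaperones HSP90AA1 and HSP90AB1 did not pass, at 1952 ± 464 and 1754 ± 209 CPM and at 1532 ± 125 and 1806 ± 20.3 CPM in parental line and leaders. HSPA1A and HSPA1B are near-identical copies and HSPA6 has a near-identical pseudogene, so their single counts are uncertain.

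Promoter sequence was looked at for these 2 lists, in which more members were higher than lower. RefSeq gave promoters, from 250 bases before to 50 bases after a gene's start, for 22 of the 30 immediate early genes and 22 of the 24 chaperones. All motifs were searched on both strands. The heat shock element, which is TTC, GAA and TTC with any 2 bases between each, lay in the promoters of 8 of the 22 chaperones (36.4%) and of 0.608% of all 27305 genes with a promoter. Of the 11 chaperones called higher that had a promoter, 3 held it (HSPA6, HSPA8 and DNAJA1), and so did 5 of the other 11. The CArG box, the site of serum response factor, lay in 9.09% of the 22 immediate early promoters (EGR1 and EGR2) and 1.6% of all. For the cyclic AMP response element TGACGTCA or TGACGCAA the shares were 13.6% and 2.88%, with 1 match (DUSP1) among the 16 immediate early genes called higher, and for the AP-1 site TGANTCA 4.55% and 9.37%. A match is a description of letters in this window and not of binding. The 3 stretches below, from RefSeq GRCh38.p14, show members called higher, with the matched motif in capitals and 20 bases on each side. They lie upstream of the start on chr1:161524446-161524498 (plus strand), chr5:138465354-138465425 (plus strand) and chr5:172771293-172771340 (minus strand), and no other searched motif overlaps the capitals.
HSPA6, heat shock element: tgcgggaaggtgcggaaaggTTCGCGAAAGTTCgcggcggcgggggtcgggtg
EGR1, CArG boxes: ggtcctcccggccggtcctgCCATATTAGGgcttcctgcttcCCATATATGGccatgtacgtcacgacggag
DUSP1, cyclic AMP response element: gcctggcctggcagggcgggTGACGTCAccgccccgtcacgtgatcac

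**Figure D3:**
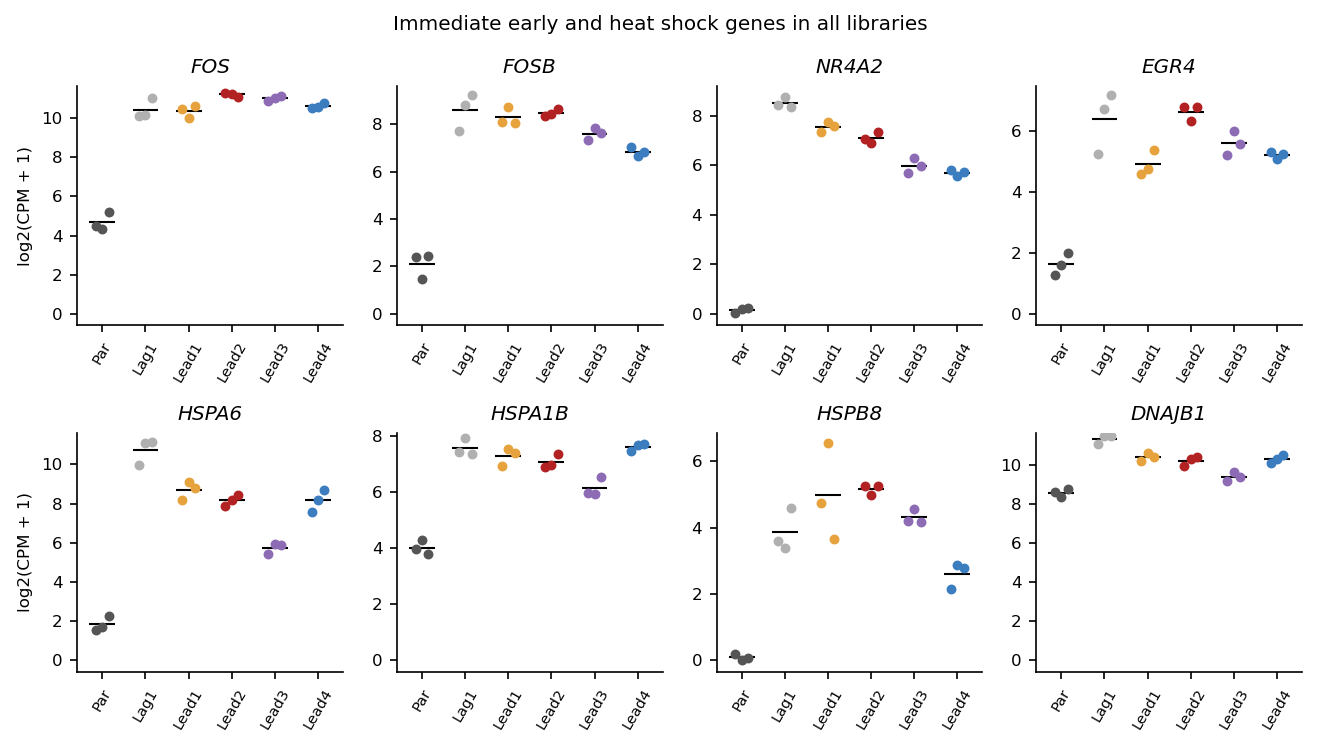
Level of 4 immediate early genes (top row) and 4 heat shock genes (bottom row) in each of the 18 libraries, as log2(CPM + 1), with a black line at the mean of the log2 values of each group (Par, parental line; Lag1, laggers of passage 1; Lead1 to Lead4, leaders of passages 1 to 4). All passage 2 leader points lie above all parental points, and HSPA6 dips in the passage 3 leaders.

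Of 33 genes of the unfolded protein and integrated stress responses 10 were higher, 9 were lower and 14 did not pass. Several chaperones and regulators of the unfolded protein response were higher, among them HERPUD1 (log2 fold change 2.15 ± 0.21, adjusted p = 3.06e-06) and the chaperone BiP, HSPA5, which went from 833 ± 76.2 to 1609 ± 199 CPM. Also higher were DDIT4, an inhibitor of mTORC1 (log2 fold change 2.26 ± 0.24, adjusted p = 7.1e-06), and PPP1R15A, which restores translation after stress (log2 fold change 1.82 ± 0.26, adjusted p = 9.84e-05), both known as targets of the integrated stress response. Several other targets of the factor ATF4, among them genes of amino acid supply, were lower. TRIB3, a pseudokinase induced by ATF4, fell from 149, 128 and 194 to 30.3, 25.6 and 24.3 CPM (log2 fold change -2.56 ± 0.27, adjusted p = 6.45e-06), and asparagine synthetase ASNS fell from 122, 129 and 79.5 to 32.2, 37.6 and 37.4 CPM. The serine synthesis genes PHGDH, PSAT1 and PSPH were lower as well, at -2.11 ± 0.54, -1.52 ± 0.31 and -0.62 ± 0.16 on the log2 scale. Of 17 genes listed as targets or feedback genes of the ERK cascade, 6 were lower and 3 higher. EPHA2, an ephrin receptor, fell from 482 ± 134 to 108 ± 6.24 CPM, ETV4 from 185 ± 54.2 to 67.5 ± 4.82 CPM and cyclin D1 (CCND1) from 317 ± 78.3 to 153 ± 16.9 CPM, whereas the ERK phosphatase DUSP6 rose from 1.42 ± 1.2 to 8.72 ± 1.27 CPM.

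Genes of proliferation were lower. In the list of DNA replication and S phase 16 of 40 members were lower and 0 higher by edgeR, with 24 that did not pass. MCM2 and MCM4, subunits of the helicase that opens replication origins, fell from 532, 502 and 802 to 247, 266 and 229.7 CPM and from 614, 649 and 765 to 331, 356 and 307 CPM (log2 fold change -1.03 ± 0.18, adjusted p = 0.000493). UHRF1, which keeps DNA methylation through replication, fell from 392 ± 152 to 124 ± 19.4 CPM. Of 40 genes of mitosis, 19 were lower and 0 higher, a count of 35 lower and 0 higher with an offset for GC content. MKI67, the proliferation antigen Ki-67, fell from 194, 245 and 308 to 81.6, 66.9 and 63.3 CPM (log2 fold change -1.82 ± 0.21, adjusted p = 1.69e-05). The mitotic kinase AURKA fell from 275, 299 and 232 to 71.2, 83.6 and 82.1 CPM (log2 fold change -1.77 ± 0.23, adjusted p = 5.5e-05). CDK1 and PCNA did not pass, at 96.4 ± 57.6 and 102 ± 19 CPM and at 108 ± 33.8 and 131 ± 18.4 CPM. CDKN1A, the inhibitor p21 of cyclin-dependent kinases, rose from 12.6, 10.2 and 15.6 to 82.7, 72.8 and 92.6 CPM (log2 fold change 2.69 ± 0.36, adjusted p = 5.67e-05).

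Keratins, the intermediate filaments of epithelia, were higher for 10 of 16 tested members and lower for 1, with a median log2 fold change of 3.46. KRT7, a keratin of pancreatic ducts, rose from 9.06, 4.72 and 6.92 to 296, 214 and 445 CPM (log2 fold change 5.53 ± 0.44, adjusted p = 4.07e-07). KRT5, a basal cell keratin, rose from 0.0498, 0.255 and 0.407 to 394, 420.4 and 401 CPM (log2 fold change 10.80 ± 1.05, adjusted p = 3.06e-06). KRT16 and KRT17, keratins of wounded and basal epithelium, rose from 0.0663 ± 0.0376 to 74.1 ± 6.65 CPM and from 0.294 ± 0.193 to 103 ± 14.4 CPM, although their near-identical relatives and pseudogenes make single counts uncertain. The simple epithelial pair KRT8 and KRT18, already abundant, rose from 2362, 1910.1 and 3124 to 10769, 7796 and 9259 CPM and from 2431, 2123 and 2703 to 11851, 7926 and 9368 CPM. The lowest leader library was above the highest parental library for each of these keratins. KRT81 was the member that fell (-1.87 ± 0.56 on the log2 scale), a call lost without parental replicate 3 or leader replicate 2 or 3, and KRT19 did not pass (655 ± 155 and 1211 ± 243 CPM).

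Other genes of epithelial identity rose from low levels: 13 of 29 were higher and 2 lower. The transcription factor ELF3 rose from 26.6, 22.6 and 33.8 to 219, 145 and 134 CPM (log2 fold change 2.58 ± 0.63, adjusted p = 0.00591), and RAB25, an epithelial regulator of vesicle recycling, from 0 counts to 10.7, 5.16 and 11.1 CPM. The desmosomal cadherin DSC2 went from 0 counts to 2.63, 1.73 and 1.07 CPM, and the tight junction proteins MARVELD2 and OCLN had log2 fold changes of 1.04 ± 0.20 and 1.32 ± 0.31. CDH1, which encodes E-cadherin, went from 0 counts to 2.2, 0 and 1.99 CPM (adjusted p = 0.0195), so leader replicate 2 did not stand above the parental line. EPCAM had 0 counts in all 6 libraries. The number of members higher fell to 7, 8 and 7 without parental replicates 1, 2 and 3 and to 6 and 7 without leader replicates 1 and 3.

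Mesenchymal genes were also higher more often than lower, with 6 of 16 higher and 3 lower. FN1, which encodes the matrix protein fibronectin, rose from 0.547, 0.587 and 1.37 to 2862, 1535 and 1385 CPM (log2 fold change 11.21 ± 1.39, adjusted p = 3.09e-05). The matrix glycoprotein SPARC rose from 12.8, 14.2 and 15.9 to 548, 899 and 477 CPM (log2 fold change 5.48 ± 0.80, adjusted p = 0.000138). S100A4, also called fibroblast-specific protein, rose from 154, 102 and 117 to 737, 859 and 1229 CPM. TGFBI fell from 16.7, 15.1 and 20.5 to 1.34, 2.34 and 0.848 CPM, and the receptor kinase AXL and the lysyl oxidase LOXL2 fell as well (-1.28 ± 0.22 and -1.54 ± 0.35 on the log2 scale). VIM, the filament vimentin, went from 1826 ± 35.4 to 2581 ± 219 CPM (adjusted p = 0.0141). Its call was lost without leader replicate 1 (0.06), without parental replicate 1 (0.0511) and without a filter (0.138). ZEB1, SNAI1 and SNAI2 did not pass, and CDH2, with 0 parental counts, stood at 0.255 ± 0.241 CPM in the leaders. The members higher numbered 3 without leader replicate 1.

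Fibrillar collagen genes belong to the fibroblast markers, and part of that list rose with them. COL1A2 rose from 0.995, 0.868 and 0.777 to 441, 636 and 287 CPM (log2 fold change 9.0 ± 0.57, adjusted p = 5.27e-08), COL3A1 from 6.42, 4.54 and 10.2 to 492, 761 and 351 CPM (log2 fold change 6.25 ± 0.53, adjusted p = 9.06e-07), and PDGFRA, a platelet-derived growth factor receptor, from 0.274, 0.0255 and 0.037 to 51.1, 47.6 and 92.3 CPM (log2 fold change 9.0 ± 0.99, adjusted p = 1.06e-05). These 3 were the only members higher among 8 tested fibroblast markers, whose summed level was 739 to 1504 CPM in the leaders and 119 to 254 CPM in the parental line. Leader replicate 3 was the lowest of its group for both collagens and the highest for PDGFRA. The partner chain COL1A1 did not pass and stood at 111, 128 and 240.3 CPM in the parental libraries and 3.96, 58.6 and 6.56 CPM in the leaders. Other defining fibroblast markers were at or near 0 in the leaders: DCN at 0.148 ± 0.17 CPM, LUM at 0.849 ± 0.733 CPM, FAP with 2 counts and DPT with 0 counts in all 3 libraries. Of 18 tested collagens 3 were higher and 3 lower, or 16.7% each way, near the shares of all tested genes (15.1% and 14.8%). Among the lower were COL18A1 (-2.50 ± 0.50) and COL4A2 (-1.26 ± 0.32) of basement membranes. COL4A1 went from 39.7 ± 5.81 to 20.2 ± 7.59 CPM and did not pass. With limma-voom 7 collagens were lower, and without leader replicate 2 it was 6.

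Of 47 genes of actin and focal adhesions 10 were higher, 10 were lower and 27 did not pass. The lower ones included vinculin (VCL), which links integrins to actin and fell from 1008, 1050.4 and 1017 to 356, 341 and 321 CPM (log2 fold change -1.60 ± 0.21, adjusted p = 5.67e-05), the filamin FLNA (-1.84 ± 0.32), the actinin ACTN1 (-1.68 ± 0.28) and paxillin (PXN, -1.70 ± 0.29). MYLK, the kinase that activates smooth muscle and non-muscle myosin, fell from 68.8, 59.9 and 92 to 0.811, 1.83 and 1.84 CPM. Higher were the actin-severing protein gelsolin (GSN), from 130.4, 108 and 196 to 1785, 1992 and 1679 CPM (log2 fold change 3.65 ± 0.55, adjusted p = 0.00017), the small GTPase RHOB (3.22 ± 0.29) and the calponin CNN3 (3.94 ± 0.73). The count of higher members was 6 without parental replicate 3 and 5 without leader replicate 3.

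Targets of YAP and TEAD, the factors that the Hippo pathway holds back, were lower for 12 of 22 and higher for 3 (median log2 fold change -1.10). AMOTL2, which binds YAP at junctions and is itself a target, fell from 451, 431 and 661 to 58.1, 69.2 and 62.9 CPM (log2 fold change -3.02 ± 0.35, adjusted p = 1.59e-05). The 3 leaders were close together for this gene and far below the parental line. CRIM1 fell from 276, 286 and 389 to 32.8, 35.5 and 37.9 CPM (log2 fold change -3.16 ± 0.39, adjusted p = 3.11e-05), and ASAP1, which acts on ARF GTPases, from 251 ± 30.6 to 45.2 ± 3.19 CPM. TEAD4 and the kinase LATS2 were lower too (-1.44 ± 0.21 and -1.67 ± 0.28). CTGF, a commonly read target, was low and did not pass (0.591 ± 0.18 and 2.5 ± 0.514 CPM).

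Among 25 integrins and laminins 7 were higher and 3 lower. Integrin alpha 6 (ITGA6), a laminin receptor, rose from 9.16, 14.8 and 11.2 to 110.5, 70.7 and 93.6 CPM (log2 fold change 2.97 ± 0.50, adjusted p = 0.00047), and its partner ITGB4 from 0.604 ± 0.631 to 4.4 ± 2.96 CPM. The laminin chains LAMA4 and LAMB2 fell, from 51.1, 51 and 56.5 to 1.58, 2.63 and 1.7 CPM and from 24.2, 29.1 and 32.2 to 7.64, 5.44 and 6.93 CPM, while LAMB1 rose (1.62 ± 0.39). Proteases and their inhibitors were mixed, with 4 of 25 higher (2 without parental replicate 1 or leader replicate 3) and 5 lower. These shares, 16% and 20%, were near those of all tested genes (15.1% and 14.8%). Tissue plasminogen activator (PLAT) rose from 0.92, 0.357 and 0.222 to 457, 434 and 708 CPM (log2 fold change 9.99 ± 0.91, adjusted p = 1.59e-06), and the metalloprotease inhibitor TIMP1 from 253 ± 33.9 to 553 ± 66 CPM. The stromelysin MMP3 joined MMP1 in falling to 0 counts, from 2.19, 2.68 and 1.26 CPM. Urokinase (PLAU) did not pass, at 337 ± 30.1 and 176 ± 52.8 CPM.

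Ligands and receptors tied to nerve invasion changed about as often as all genes. Of 31 listed ligands and receptors 17 could be tested, 3 were higher and 3 lower, close to the background shares. GDNF itself went from 0 counts to 2.39, 2.02 and 3.8 CPM, at least 100.2-fold higher. Its receptor chain RET did not pass (0.0766 ± 0.133 and 0.473 ± 0.419 CPM), and the co-receptor GFRA1 had 0 counts in all 6 libraries. CXCR4, the receptor of the chemokine CXCL12, went from 0.0746, 0 and 0 to 1.15, 1.03 and 2.06 CPM, while CXCL12 had 0 counts. The chemokine CCL2 went from 0 counts to 0.143, 0.234 and 1.18 CPM (adjusted p = 0.017), a call lost with limma-voom (0.0735) and without leader replicate 3 (0.0879). Persephin (PSPN) and artemin (ARTN), relatives of GDNF, fell from 7.95 ± 3.45 to 1.89 ± 0.605 CPM and from 0.819 ± 0.705 to 0.0472 ± 0.0469 CPM. L1CAM, an adhesion protein of axons, went from 71.3, 82.8 and 130.4 to 53.3, 41.4 and 43.8 CPM (log2 fold change -1.04 ± 0.32, adjusted p = 0.0239). It did not pass without parental replicate 3 (adjusted p = 0.135), without leader replicate 2 (0.0804) or 3 (0.0807), or with the GC offset (0.0778). The lower members numbered 1 without parental replicate 3 or leader replicate 2 or 3.

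Of 41 axon guidance genes 7 (17.1%) were higher and 8 (19.5%) lower, near the shares of all tested genes (15.1% and 14.8%). The receptors EPHA2, EPHA4, NRP2 and PLXND1 fell, with EPHA4 going from 100.2, 96.5 and 90.7 to 21.6, 28 and 22 CPM and NRP2, a co-receptor of semaphorins, from 161, 159 and 181 to 30.9, 54.1 and 37.9 CPM. The secreted netrin NTN4 rose from 0, 0 and 0.037 to 3.48, 5.77 and 2.32 CPM and the receptor EPHA3 from 0 counts to 2.77, 1.73 and 6.89 CPM. SEMA7A, a membrane-anchored semaphorin, fell from 3.71, 2.68 and 5.36 to 0.0955, 0.188 and 0.332 CPM. Higher members numbered 3 or 4 when any 1 of the 6 libraries was left out.

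Of 39 interferon response genes 17 were higher, 1 (STAT2) was lower and 21 did not pass. GBP2, an interferon-induced GTPase, rose from 0, 0 and 0.037 to 26.3, 25.2 and 22 CPM (log2 fold change 10.71 ± 0.77, adjusted p = 1.54e-07). IFITM3, which blocks virus entry, rose from 57.8, 43.1 and 54.4 to 292, 322 and 301 CPM (log2 fold change 2.56 ± 0.30, adjusted p = 1.78e-05), and BST2 (tetherin) from 17.5, 13 and 15.6 to 101, 173 and 133 CPM. GBP1 went from 0.0249, 0 and 0 to 9.88, 17.7 and 10.4 CPM. The canonical members ISG15, IFIT1 and MX1 did not pass, at 79.6 ± 44.7, 12.3 ± 8.26 and 2.07 ± 1.14 CPM in the leaders and 55.7 ± 15, 16 ± 4.46 and 1.52 ± 1.4 CPM in the parental line.

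Of 29 genes of antigen presentation 14 were higher and 0 lower by edgeR (9 higher without leader replicate 2). B2M, the light chain of class I molecules, rose from 169.9, 154 and 64.8 to 736, 827 and 1174 CPM (log2 fold change 2.81 ± 0.48, adjusted p = 0.000454). Parental replicate 3 was the lowest library for B2M, and the groups did not overlap. HLA-C, a heavy chain, rose from 47.3 ± 10.4 to 161 ± 17.3 CPM, and PDIA3, a disulfide isomerase of the peptide-loading complex, from 240.3 ± 55.6 to 562 ± 26.3 CPM. HLA genes are similar in sequence, which makes single counts uncertain. TAP1, the peptide transporter, did not pass (85.8 ± 17.7 and 78 ± 12.2 CPM). Of the 14 members higher, 9 lie on chromosome 6, as do 17 of the 29 tested.

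Cytokine and NF-kB genes were split, with 9 of 29 higher and 6 lower. IL32 rose from 2.31, 1.61 and 1.74 to 40.2, 38.4 and 54.8 CPM, and the adhesion molecule ICAM1 from 0.473, 0.664 and 1.04 to 108, 30.6 and 10.9 CPM. ICAM1 was uneven, with leader replicate 1 far above replicate 3, yet each leader was above each parental library. The neutrophil chemokines went the other way: CXCL2 fell from 7.71, 6.92 and 5.03 to 0.573, 0.703 and 0.516 CPM and CXCL5 from 38.5, 60 and 25.7 to 0.191, 0.797 and 0.811 CPM. IL18, a cytokine of the inflammasome, fell from 12.5, 13.2 and 7.18 to 0.334, 0.797 and 0.479 CPM (log2 fold change -4.34 ± 0.67, adjusted p = 0.000219). TNFAIP6, a hyaluronan-binding protein, stood at 0.0249, 0 and 0 and 2.82, 1.13 and 5.6 CPM.

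All 13 mitochondrially encoded protein genes were higher (median log2 fold change 2.29). MT-ND2, a subunit of complex I, rose from 129, 97.3 and 78.8 to 822, 670.3 and 826 CPM (log2 fold change 2.93 ± 0.30, adjusted p = 4.5e-06), and MT-ATP6 of the ATP synthase from 89.2, 69.8 and 53.9 to 547, 449 and 526 CPM. All leader libraries were higher for both. The ribosomal RNA MT-RNR2 rose from 4798, 3742 and 2600.5 to 23904, 22128 and 26184 CPM. Nuclear genes of the respiratory chain were higher for 16 of 46 and lower for 4, or for 1 or 2 without parental replicate 1 or 3 or any 1 leader library. Among those higher were small accessory subunits such as NDUFA1 (1.99 ± 0.32), NDUFA4 (1.91 ± 0.37), NDUFC1 (1.24 ± 0.20) and COX7C (1.44 ± 0.28), while the core subunits CYC1, UQCRC1 and SDHA were among the 4 lower ones (-0.83 ± 0.20, -0.49 ± 0.17 and -0.48 ± 0.17). Nuclear copies of mitochondrial DNA and the higher share of multiply aligned reads in the leaders bear on these counts, and their part was not tested.

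Of 40 genes of hypoxia and glycolysis 11 were higher, 10 were lower and 19 did not pass. Hypoxia-induced ADM, which encodes the vasodilator adrenomedullin, rose from 1.54, 0.562 and 2.4 to 43.4, 35.9 and 64.3 CPM (log2 fold change 5.01 ± 0.48, adjusted p = 2.96e-06). NDRG1 rose from 4.6 ± 3.23 to 53.8 ± 9.67 CPM, DDIT4 from 93.9 ± 27.7 to 451 ± 13.1 CPM, and the glucose transporter SLC2A3 from 62.5 ± 4.58 to 199 ± 17.3 CPM. Several enzymes of glycolysis were lower, among them hexokinase HK1 (-1.16 ± 0.21), PFKM (-0.97 ± 0.19), PFKP (-0.96 ± 0.22) and pyruvate kinase PKM (-0.83 ± 0.17). Lactate dehydrogenase LDHA rose (0.91 ± 0.25), and GAPDH, VEGFA and PGK1 did not pass. Without any 1 of the 3 leader libraries or parental replicate 1 the members higher numbered 7, and without parental replicate 3 or leader replicate 1 or 3 the members lower numbered 6.

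Of 32 genes of cholesterol and fatty acid synthesis 11 were higher and 6 lower. The sterol enzymes HMGCS1 (17.8 ± 5.37 to 51.2 ± 6.03 CPM), SQLE (0.84 ± 0.16) and FDFT1 (0.72 ± 0.15) and the elongase ELOVL6 (7.37 ± 1.28 to 22.4 ± 2.66 CPM) were higher, although SQLE did not pass with the GC offset (adjusted p = 0.274). The master regulator SREBF1 and the fatty acid enzymes FASN, ACACA and ACLY were lower (-1.13 ± 0.26, -1.01 ± 0.36, -0.67 ± 0.23 and -0.61 ± 0.17), and the count of lower members was 1 to 3 without parental replicate 3 or any 1 leader library. Redox genes were lower for 11 of 34 and higher for 4 (2 without parental replicate 3). TXNRD1, thioredoxin reductase, fell from 954, 1073 and 825 to 294, 259.9 and 241 CPM (log2 fold change -1.84 ± 0.29, adjusted p = 0.000291), and AKR1C1, an aldo-keto reductase with near-identical relatives, from 250.2, 221 and 180.3 to 5.25, 16.4 and 8.26 CPM. The peroxiredoxin PRDX5 and the superoxide dismutase SOD2 rose (1.08 ± 0.22 and 0.71 ± 0.17). Among 25 aldehyde dehydrogenase and retinoid genes 5 were higher and 7 lower, with ALDH3B1 falling from 159.5 ± 46.1 to 15.1 ± 7.51 CPM, ALDH3A1 rising from 1.52 ± 0.159 to 41.5 ± 5.92 CPM and ALDH1A1 not passing (709 ± 206 and 608 ± 115 CPM).

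Signalling lists held strong single changes. SOX9, a transcription factor of pancreatic ducts and progenitors, rose from 0.323, 0.408 and 1.41 to 201, 312 and 346 CPM (log2 fold change 8.72 ± 0.99, adjusted p = 1.41e-05), and GATA6, a factor of the classical subtype of pancreatic cancer, from 1.07, 0.46 and 2.4 to 125, 112 and 91.8 CPM (log2 fold change 6.42 ± 0.81, adjusted p = 3.56e-05). Cyclin D2 (CCND2) rose from 0.125 ± 0.138 to 9.91 ± 3.42 CPM. These 3 and CDKN1A were among 6 of 21 drivers and checkpoint genes that were higher, with 3 lower. For SOX9 and GATA6 no parental library came near the leaders. CDKN2A and MTAP, neighbours known to be lost from this line, had 0 counts in all 6 libraries.

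In the TGF-beta list 5 of 26 were higher (2 without parental replicate 3, 3 without leader replicate 3) and 6 lower. PMEPA1, an induced inhibitor of the pathway, rose from 0.97, 1.1 and 2.59 to 27.7, 31.8 and 32.1 CPM (log2 fold change 4.32 ± 0.54, adjusted p = 3.21e-05). ID1 and ID3, targets of bone morphogenetic proteins, fell from 169.7 ± 50 to 16.7 ± 5.04 CPM and from 663 ± 147 to 63.9 ± 12.8 CPM, and the mediator SMAD3 fell from 176 ± 16.5 to 42.9 ± 4.03 CPM. Of 30 Notch and Wnt genes 6 were higher and 7 lower (4 without parental replicate 3 or leader replicate 2 or 3). The Notch target HES1 rose from 12.8, 9.73 and 15.7 to 77.9, 95.7 and 117 CPM (log2 fold change 2.93 ± 0.35, adjusted p = 2.03e-05), whereas the receptors NOTCH1, NOTCH2 and NOTCH3 were all lower (-2.16 ± 0.54, -0.82 ± 0.19 and -1.63 ± 0.51). LEF1, a nuclear partner of beta-catenin, and the Wnt inhibitor DKK4 went from 0 counts to 3.68, 4.64 and 2.36 CPM and 1.38, 3.8 and 0.959 CPM, while the receptor FZD7 fell from 116 ± 38.2 to 36.4 ± 5.22 CPM.

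The S100 calcium-binding proteins were higher for 10 of 13 tested members and lower for none by edgeR (median log2 fold change 2.48). S100A2 rose from 21, 14 and 13.2 to 302, 254 and 495 CPM (log2 fold change 4.45 ± 0.45, adjusted p = 4.74e-06), S100A3 from 4.11 ± 1.02 to 39.3 ± 7.3 CPM and S100A16 from 38.3 ± 4.77 to 282 ± 33.6 CPM. S100A8 and S100P had 0 leader counts. Of 12 ERBB receptors and ligands 3 ligands were higher and 0 were lower. HBEGF rose from 10.7, 8.07 and 9.06 to 24.4, 23.3 and 27.3 CPM (log2 fold change 1.43 ± 0.30, adjusted p = 0.00224) and NRG4 from 0.0589 ± 0.0528 to 1.55 ± 0.304 CPM, while BTC (log2 fold change 1.13 ± 0.38, adjusted p = 0.0341) did not pass with the GC offset (adjusted p = 0.248) or in 5 of the 6 fits with 1 library left out (0.075 to 0.0961). The receptors EGFR and ERBB2 did not pass (126 ± 17.8 and 116 ± 12 CPM, 247 ± 65.9 and 165 ± 13.7 CPM).

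Of 14 Schwann cell markers 7 could be tested, 1 was higher and 2 lower, and their summed level was 87.7 to 96.2 CPM in the leaders and 308 to 413 CPM in the parental line. SOX10, which defines Schwann cells, had 0 leader counts, as did 4 of the 14 in all, PMP22 and NGFR did not pass (21 ± 5.47 and 19 ± 3.3 CPM, 7.42 ± 4.25 and 10 ± 4.43 CPM), and MBP fell from 199.5, 207 and 235 to 4.77, 5.02 and 3.43 CPM. EGR2, the member that rose, is also on the immediate early list. The lower Schwann cell markers numbered 1 without parental replicate 3 or leader replicate 2 or 3, and the higher ones 2 without leader replicate 2. Of 10 neuron markers 3 could be tested and 0 passed in edgeR (1 was lower without parental replicate 3), with sums of 2.00 to 2.58 and 0.962 to 1.48 CPM. Of 18 macrophage and leukocyte markers 7 could be tested; PTPRC (CD45) went from 0 counts to 1.86, 4.55 and 2.88 CPM, FCER1G, CD4 and CD68 were lower, and CD163, CSF1R, TYROBP, LYZ and CD14 had 0 leader counts. CD68 lost its call without any 1 of the 6 libraries (adjusted p = 0.0506 to 0.136) and without a filter (0.162), and CD4 lost it without leader replicate 3 (0.0592). The sums of that list were 5.68 to 11 and 4.26 to 10.9 CPM. Endothelial sums were 72.3 to 93.9 and 155 to 278 CPM (0 of 6 higher, EGFL7 lower), muscle sums 55.3 to 83.7 and 122 to 172 CPM (TNNT3 higher, though not with limma-voom, TNNT1 lower, of 6), adipocyte sums at most 0.0498 CPM, and erythroid sums at most 1.26 CPM. In bulk samples fewer cells of a type and less RNA per cell cannot be told apart. The labels do not name the host species, and the part of host reads in these counts was not tested.

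Passage 2 leaders were next compared directly with passage 1 leaders, which shares no parental library: 333 genes (2.06%) were higher and 246 (1.52%) lower in passage 2. LEFTY2, a secreted inhibitor of Nodal, had 0 counts in all 3 passage 1 libraries and 26.4, 28.9 and 6.01 CPM in passage 2, at least 457-fold higher. OLFM4 went from 0.699, 0 and 4.86 CPM in passage 1 to 138, 66.2 and 109 CPM (log2 fold change 5.80 ± 1.26, adjusted p = 0.0245). Every passage 2 library lay above every passage 1 library for both genes. Absence of overlap was a condition of the choice of genes here too and is no support for it. SLC14A1, a urea transporter, went from 1 count to 4.44, 3.23 and 14 CPM, a ratio of 558 with a 95% counting interval of 99.8 to 22093, and OBP2B, a lipocalin, from 0.368, 0 and 0.0415 to 6.06, 8.35 and 8.37 CPM. IGFL1 (22.8, 1.13 and 56.3 CPM in passage 2) and REG4, a secreted lectin of the gut (1.15, 1.55 and 23.6 CPM), completed the 6 largest rises and were carried unevenly by the 3 libraries.

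The 6 largest falls from passage 1 to passage 2 were in KRT23, SERPINA6, PAMR1, CXCL1, AGR2 and CLDN16. AGR2, a disulfide isomerase of mucus-secreting cells, had 26.9, 10.1 and 61.7 CPM in passage 1 and 0.477, 0 and 0.221 CPM in passage 2 (log2 fold change -7.12 ± 0.98, adjusted p = 0.00666). KRT23 had 35.7, 1.48 and 6.39 CPM in passage 1 and no count in passage 2, at least 373-fold lower. SERPINA6, the carrier of cortisol, and PAMR1 also had no passage 2 count, from 12, 0.94 and 8.22 and 2.72, 0.198 and 17.9 CPM. CLDN16, a claudin of the renal tubule, fell from 58.6, 1.34 and 130.1 to 1.29, 0 and 0.848 CPM. Passage 1 replicate 2 was the lowest of its group for all 6, and for CLDN16 it lay just above the highest passage 2 library.

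By number of members, the list that differed most from passage 1 was DNA replication, where 6 of 40 were higher in passage 2 and 0 lower by edgeR. Some shorter lists had larger shares. Of 13 S100 proteins 3 were lower, of 25 aldehyde dehydrogenase and retinoid genes 1 was higher and 4 lower, and of 3 neuron markers 2 were lower. The 6 replication genes were MCM2, MCM3, MCM4, MCM10, POLA2 and POLD1, with MCM3 going from 92 ± 8.37 to 173 ± 20.9 CPM (log2 fold change 0.91 ± 0.17, adjusted p = 0.0152). All but POLA2 were still lower in passage 2 than in the parental line. Of the actin list 5 were higher (VCL, FLNA, ACTN4, DIAPH1 and MSN), with FLNA going from 333 ± 122 to 782 ± 94 CPM. SOX9 rose from 23.6, 1.68 and 11.3 to 201, 312 and 346 CPM (log2 fold change 4.55 ± 0.80, adjusted p = 0.0115), FN1 from 147, 20.1 and 219 to 2862, 1535 and 1385 CPM (log2 fold change 3.91 ± 1.0, adjusted p = 0.0419) and PDGFRA from 10 ± 7.51 to 63.7 ± 24.9 CPM. Lower in passage 2 were S100A4, S100A8 and S100A13, the sterol genes FDPS, FDFT1, HSD17B7 and INSIG1, and ADM, which fell from 184 ± 70.6 to 47.9 ± 14.7 CPM. IL18 fell from 10.2, 8.36 and 4.82 to 0.334, 0.797 and 0.479 CPM (log2 fold change -3.85 ± 0.66, adjusted p = 0.0105). These members were chosen after their values were seen. Of the immediate early list only EGR4 differed between the passages (1.74 ± 0.40), and 0 of the 13 mitochondrially encoded protein genes passed in edgeR, while the ribosomal RNA MT-RNR2 was lower in passage 2 (log2 fold change -0.94 ± 0.24, adjusted p = 0.0405).

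**Figure D4:**
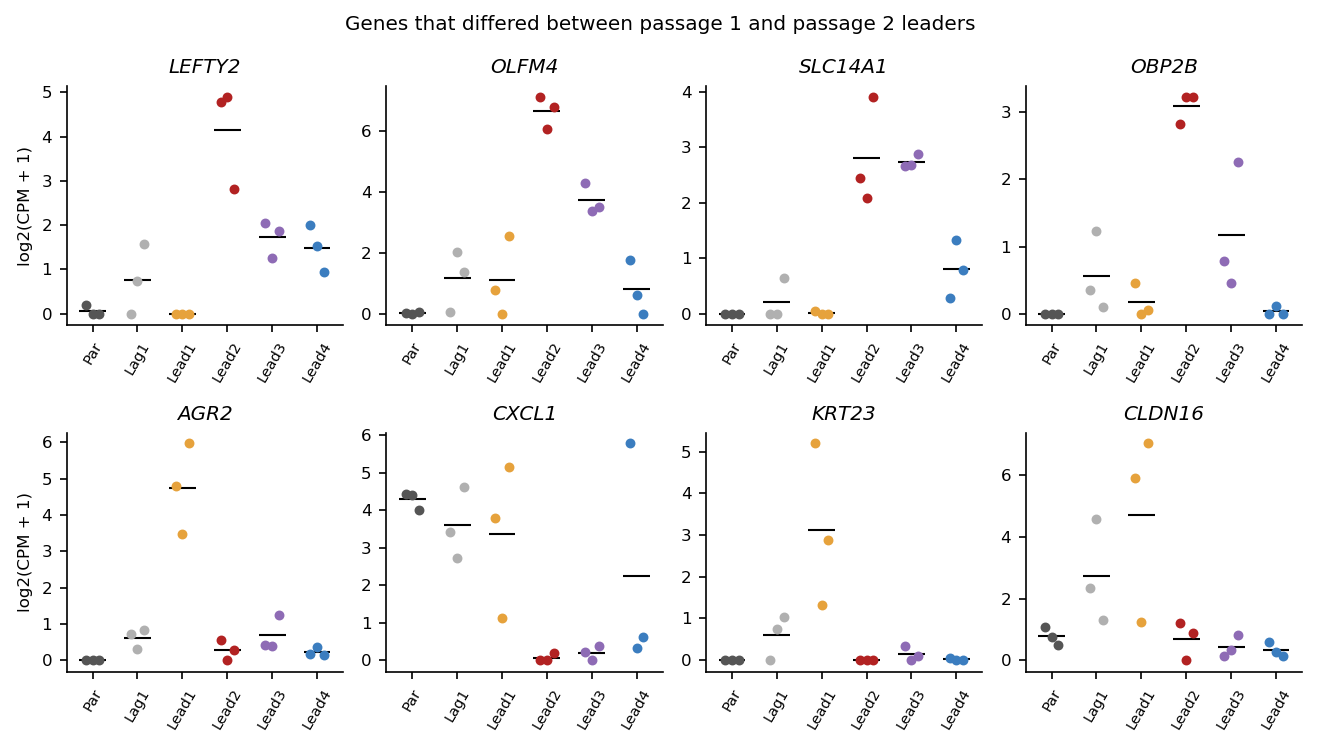
Level of 4 genes higher (top row) and 4 lower (bottom row) in passage 2 than in passage 1 leaders, in each of the 18 libraries, as log2(CPM + 1), with a black line at the mean of the log2 values of each group (Par, parental line; Lag1, laggers of passage 1; Lead1 to Lead4, leaders of passages 1 to 4). LEFTY2 and OLFM4 peak in passage 2 leaders, and CXCL1 has no more than 0.147 CPM there.

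That count depended on the libraries and the fit. It was 265 at most and 38 at least when 1 of the 6 compared libraries was left out, 1537 with DESeq2 (745 higher, 792 lower) and 2147 when the 6 libraries were fitted alone (1082 higher, 1065 lower). Without a filter on low counts more genes were lower than higher (365 against 290). Of the 12 genes of largest fold, LEFTY2 and AGR2 passed without each of the 6 compared libraries in turn, and the other 10 lost their call in at least 1 such fit.

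Passage 3 leaders differed from passage 2 leaders in 2 genes (0.0124%). Passage 3 replicate 2 stands apart: its erythroid markers sum to 21051.6 CPM, against at most 0.859 CPM in the other 5 libraries compared, and 24.8% of its entries were not aligned. HSPA6 fell from 233, 294 and 347 to 42, 59.6 and 58.3 CPM (log2 fold change -2.45 ± 0.36, adjusted p = 0.0319) and returned to 192, 295 and 418 CPM in passage 4. MYEOV, a gene overexpressed in some myelomas, rose from 4.11, 7.41 and 7.74 to 62.2, 57.2 and 24.4 CPM (log2 fold change 2.90 ± 0.42, adjusted p = 0.0319). In both genes the groups did not overlap, which was a condition for naming them and is no support. In all, 1029 genes had an unadjusted p under 0.05 in edgeR, and DESeq2 called 143 genes and limma-voom 24. HSPA6 passed in no fit that left out 1 of the 6 libraries (adjusted p = 0.059 to 0.203), and MYEOV passed in 1 of those 6.

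The change against the parental line varied with the base composition and position of genes. Over 5 equal groups of tested genes by GC content, the median log2 fold change was 0.36, 0.23, 0.01, -0.23 and -0.56 from the lowest to the highest, and the share called lower went from 2.91% to 28.4%. With an offset that takes out this trend 6097 genes were called, 2955 higher and 3142 lower, and 4245 of the 4846 were among them with the same sign. By chromosome, the median log2 fold change of protein-coding genes ranged from -0.42 on chromosome 22 to 0.33 on chromosome 4, with chromosome 6 above all other nuclear chromosomes at 0.52. There 215 of 662 genes (32.5%) were higher and 23 (3.47%) lower. In each GC group the median of chromosome 6 was above that of the other chromosomes, from 0.81 against 0.31 in the lowest to -0.04 against -0.59 in the highest, and with the GC offset it was 0.39.

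**Figure D5:**
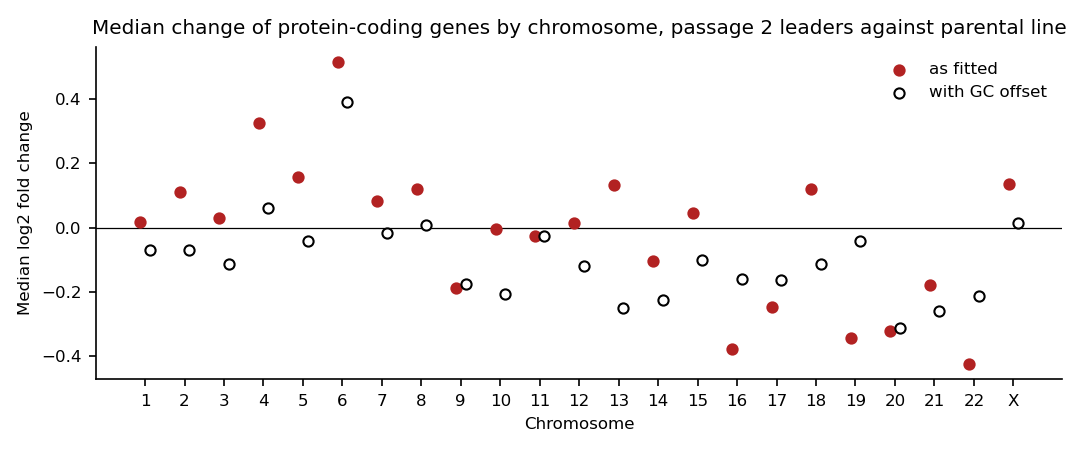
Median log2 fold change of protein-coding genes on each nuclear chromosome, passage 2 leaders against the parental line, as fitted (red) and with an offset for GC content (open circles). Chromosome 6 has the highest median in both, 0.52 and 0.39.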

How the data were processed

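Values are raw gene counts that the authors deposited for 18 RNA-seq libraries, 3 in each of 6 groups. Per the submitters' processing notes, cutadapt 1.6, STAR 2.5.0a, HTSeq 0.5.3 and DESeq 1.22.1 were used. Genome build and annotation: not given in the sources used here. Per the labels' protocols, cDNA was amplified with a kit that does not mark strand, so overlapping and antisense genes cannot be told apart. Samples were grouped by their labels.

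The 5 entries that name no gene were left out of library sizes and tests. The deposited counts of all 18 libraries were fitted in edgeR 4.0.16 (R 4.3.3) with TMM factors, filterByExpr (16187 of 57445 genes kept) and the quasi-likelihood test, with Benjamini-Hochberg adjustment over all tested genes. For each gene all groups share 1 estimate of the spread. The common value over genes was a biological coefficient of variation of 35.5%, and the test did not use it as the spread of every gene. The script was tested on simulated data. Standard errors are the fold change over the root of F. Gene names, chromosomes, lengths and GC content came from GENCODE 29 by gene ID (51812 genes matched a chromosome) and promoters from RefSeq. Counting intervals are at 95% and cover counting error only, and the floor for a group at 0 is 3 counts over the group.

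Named genes were the 12 largest fold changes each way at 5 CPM or more without overlap, the 8 largest changes each way in CPM, up to 4 members of each list with the smallest adjusted p, 6 each way for the later comparisons, and members that did not pass. Some genes that this rule gives are not reported here. Other genes named were chosen after their values were seen. The members and lists were chosen with earlier results of these data known. Alternatives were DESeq2 1.42.0, limma-voom (limma 3.58.1), RLE factors, library totals, no filter, a filter at 1 CPM, the compared libraries alone, mitochondrial genes left out, a replicate block, each replicate left out, and, added after the data were seen, a GC offset and the fit without the passage 3 leader library rich in haemoglobin counts.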

Additional observations from a re-analysis of the deposited data

Results flagged for a closer look

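The 12 genes of largest fold between passage 2 and passage 1 leaders were taken from those that passed edgeR's quasi-likelihood test without overlap. Passing was thus a condition of the choice and is no support for it. Only LEFTY2 and AGR2 kept their call when each compared library was left out in turn. Higher in passage 2 were LEFTY2 (adjusted p = 0.00769), SLC14A1 (0.0105), IGFL1 (0.0236), OLFM4 (0.0245), OBP2B (0.0282) and REG4 (0.0316). Lower were AGR2 (adjusted p = 0.00666), KRT23 (0.018), CLDN16 (0.0254), SERPINA6 (0.0325), CXCL1 (0.0416) and PAMR1 (0.0435). MYEOV and HSPA6 differed between passage 3 and passage 2 leaders, each with an adjusted p of 0.0319 in the same test. Outside the gene counts, reads aligned to more than 1 place took a mean of 29.4% ± 1.26 of all entries in the passage 2 leaders and 15.1% ± 1.24 in the parental line (SD, n = 3), and no library of one group reached the other.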

How the results depend on the processing

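The 4846 calls against the parental line ranged from 4560 (replicate block) to 6097 (GC offset) under the other fits and from 3167 to 4414 when 1 of the 6 libraries was left out. For passage 2 against passage 1 leaders the 579 calls became 1537 with DESeq2, 2147 with the compared libraries alone, 353 with a replicate block, 2269 with the GC offset and 38 to 265 with 1 library left out. Its split of 333 higher and 246 lower became 290 and 365 without a filter and 315 and 302 at 1 CPM. For passage 3 against passage 2 leaders the 2 calls became 143 with DESeq2, 24 with limma-voom, 111 without a filter, 113 with the compared libraries alone, 4 with a replicate block, 36 with the GC offset and 0 to 1 with 1 library left out, where 796 to 1261 genes had an unadjusted p under 0.05 in edgeR. The causes were not tested. Of the alternatives for single named genes, 2902 kept the direction and the side of the threshold, 97 kept only the direction and 0 reversed it. That tally covers only genes that the naming rule took from those called, a choice that favours stable calls. Genes named after their values were seen are not in it. Of the alternatives for list counts, 1150 stayed within 1.5 times and 106 did not. Deviations from the group mean had correlations of -0.208, -0.125 and -0.235 between same-numbered libraries of passage 2 leaders and the parental line. With passage 1 leaders they were -0.0393, -0.0772 and 0.0119, and with passage 3 leaders -0.258, 0.0761 and 0.0141. So few pairs cannot settle whether the replicate numbers pair the libraries. Where a replicate was left out its group had 2 libraries, and the filter on low counts limited the test to 16187 genes.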

Other observations

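Genes of chromosome 6 that are protein-coding were read in 6 blocks of gene order, a division chosen after the chromosome's median was seen. The median log2 fold change against the parental line was 0.57 from DUSP22 to PRSS16, 0.30 from ZNF391 to PSMB9, 0.13 from TAP1 to ZNF318, 0.54 from ABCC10 to ANKRD6, 0.83 from LYRM2 to SGK1 and 0.65 from ALDH8A1 to PDCD2. In the block from LYRM2 to SGK1 47.3% of tested genes were higher. The share of gene counts from chromosome 6 was 2.71% to 3.19% in the parental libraries, 3.33% to 3.72% in passage 1 leaders, 4.02% to 4.17% in passage 2, 3.67% to 4.46% in passage 3 and 4.52% to 4.80% in passage 4. Between passage 2 and passage 1 leaders the median log2 fold change was 0.19 on chromosome 6 and 0.05 on the other chromosomes.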
